A study of Homo sapiens with 4 samples.

Results

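DCT and MAGEB2 are genes for antigens of tumours of tissues other than the colon, and their expression was measured here in a colon cancer cell line. They were 2 of the 1843 genes on the array, and each was printed as 1 probe in 2 spots, out of 3840 spots per array. The pair was chosen from these same arrays because DCT had a positive and MAGEB2 a negative ratio of treated over control RNA on both arrays. Those ratios are therefore given as a description, with no test, and they support nothing on their own.

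The study used SW480, an established line from an adenocarcinoma of the colon, grown with 10% fetal bovine serum. Cells of the BM group received 15% (v/v) of a postbiotic, a preparation from the bacterium Bacillus mojavensis, for 10 h. Cells of the MRS group received 15% (v/v) of MRS, the medium in which the bacterium is grown, for the same time. Each group had 2 samples, described by the submitters as grown and harvested independently, and array 1 carried replicate 1 of both groups and array 2 replicate 2. On both arrays MRS RNA carried Alexa Fluor 555 and BM RNA Alexa Fluor 647, so an effect of the dye and an effect of the treatment cannot be told apart. The groups follow the sample titles, because the treatment field of the labels names MRS medium for all 4 samples. Replicate numbers also follow the titles, and the file headers number the same samples differently. All 4 samples share the cell line, so each result holds for 1 line.

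DCT encodes dopachrome tautomerase, an enzyme of the melanosome that converts dopachrome to DHICA, a precursor of brown and black melanin, downstream of tyrosinase. It belongs to the tyrosinase family with TYR and TYRP1, is normally made by melanocytes and the retinal pigment epithelium, and is known as the melanoma antigen TRP-2. MAGEB2 is an X-linked member of the MAGE family, whose genes of this type are expressed mainly in male germ cells, are silenced in other tissues with the help of DNA methylation, and are often active again in tumours. MAGE proteins share a domain through which they bind RING-type E3 ubiquitin ligases, TRIM28 among them.

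Spot brightness differs between oligonucleotides for reasons other than RNA amount, so the intensities below are set against the surface around the same spot. The median raw intensity over all gene spots was 1985 in MRS and 1655 in BM on array 1, and 2186 and 1895 on array 2. Nearly every gene spot stood above its surroundings: between 3702 and 3764 of 3786 gene spots per sample reached 1.5 times the local background. So did 54, 53, 54 and 54 of the 54 control oligonucleotide spots in MRS 1, BM 1, MRS 2 and BM 2. Signal above the local background was thus shared by the control spots, and for DCT and MAGEB2 it does not by itself show that the gene was expressed. What the control oligonucleotides match was not given in the sources.

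For DCT, the raw intensity of the upper spot was 2811 in MRS 1 and 3275 in BM 1, and 2031 in MRS 2 and 2209 in BM 2. The lower spot, printed 5 rows below in the same block, gave 3526 in MRS 1 and 4028 in BM 1, and 4674 in MRS 2 and 4484 in BM 2. BM was the brighter channel at 3 of the 4 DCT spots, and MRS at the lower spot of array 2. Every DCT spot was well above its surroundings, at 43.4 to 93.9 times the local background in MRS and 23.0 to 54.2 times in BM. The background around them was even, with an SD of 1.63 to 3.43 intensity units.

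MAGEB2 was bright at 3 of its 4 spots. The upper spot gave 20945 in MRS 1 and 17059.6 in BM 1, but 710.4 in MRS 2 and 592.5 in BM 2. The lower spot gave 15431 in MRS 1 and 11719 in BM 1, and 10896 in MRS 2 and 9628 in BM 2. MRS was the brighter channel at all 4 spots, but it was the brighter one on the arrays in general. The median raw ratio of BM over MRS among gene spots was 0.884 on array 1 and 0.910 on array 2. The upper and lower MAGEB2 spots were at 0.814 and 0.759 on array 1, and at 0.834 and 0.884 on array 2. The 3 bright spots lay at 215 to 285 times the local background in MRS and 92.8 to 155 times in BM, whereas the upper spot of array 2 lay at 1.14 times in MRS and 0.987 times in BM.

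**Figure D1:**
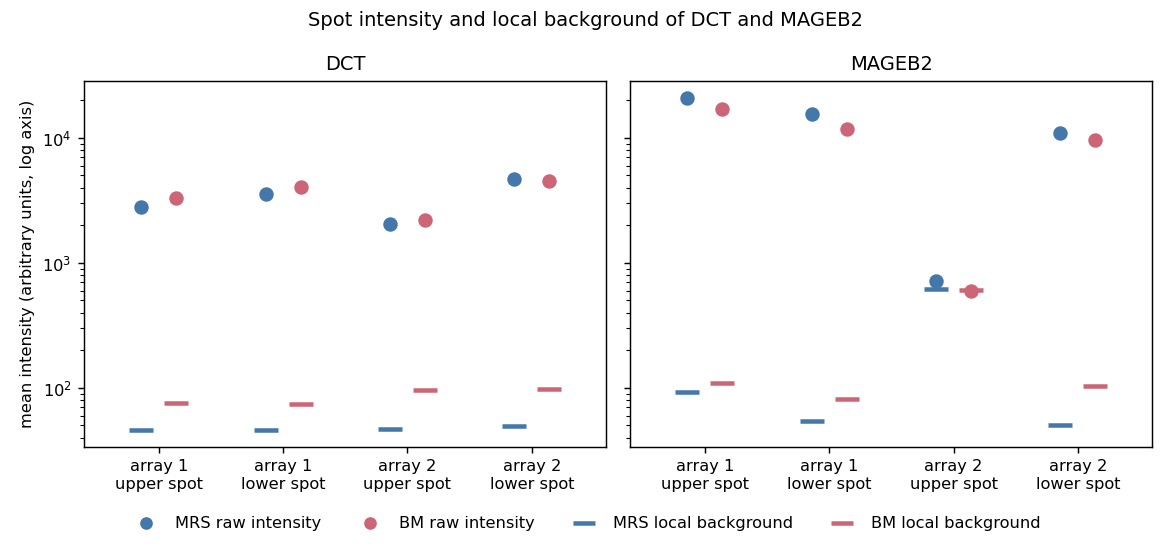
Raw intensity and local background of each DCT and MAGEB2 spot, in arbitrary intensity units on a log axis, for the upper and lower spot in the 4 samples. All spots stand far above their background except the upper MAGEB2 spot of array 2, where 710.4 and 592.5 units meet backgrounds of 622.8 and 600.6.

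The surroundings of that MAGEB2 spot were unlike those of the others. Its local background of 622.8 in MRS and 600.6 in BM was the highest of all 3840 spots in both channels, against medians of 51.9 and 102 over gene spots. The SD of the background pixels was 1711 in MRS and 1457 in BM, against medians of 2.26 and 3.64 over gene spots. The spot lies in the first print block, where high background SD was concentrated: of 39 spots on array 2 with an SD over 50 in either channel, 31 were in the upper 4 rows of this block. On array 1, 22 of 23 such spots were there, and the upper MAGEB2 spot was among them with an SD of 232.8 in MRS and 161.8 in BM, though its raw intensity was far above the background. The lower MAGEB2 spot was outside the area and had an SD of at most 3.40 in any sample.

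**Figure D2:**
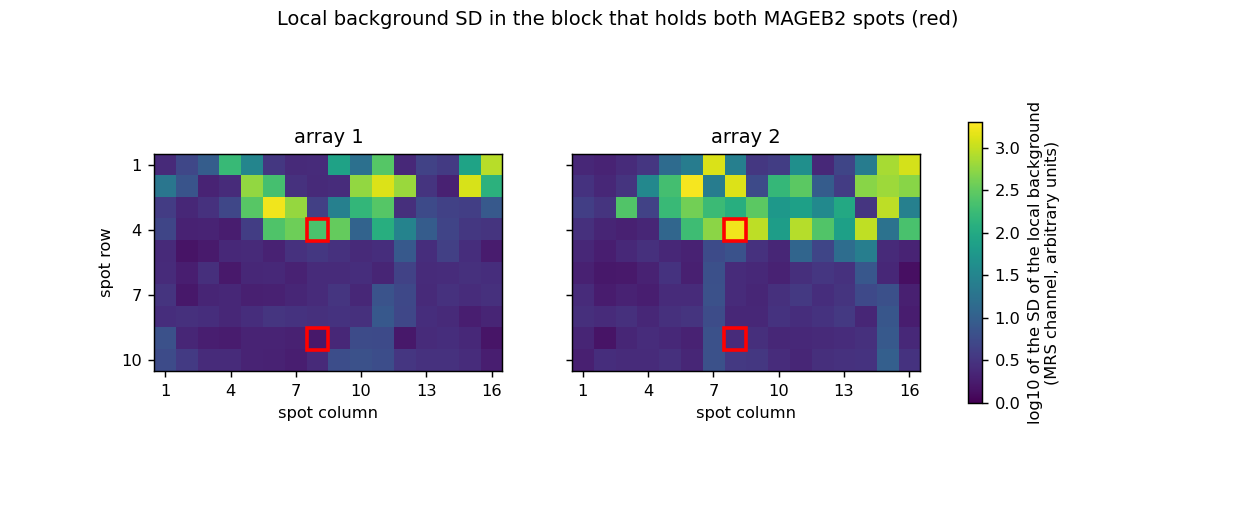
Local background SD of the spots of the first print block on both arrays, in the MRS channel, as log10 of intensity units on the colour scale, by row and column within the block, with the MAGEB2 spots marked. High values lie in the upper 4 rows on both arrays, with the upper MAGEB2 spot inside this area and the lower one outside it.

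After loess normalisation within each array, a correction for dye bias that varies with brightness, the ratio of BM over MRS was expressed on the log2 scale, where 0 is no difference. DCT had log2 ratios of 0.46 at the upper and 0.41 at the lower spot of array 1, and of 0.32 and 0.13 on array 2. All 4 were positive, and array 1 gave the higher pair. The mean was 0.43 on array 1 (1.35-fold) and 0.22 on array 2 (1.17-fold), or 0.33 ± 0.15 (SD, n = 2), a mean ratio of 1.26-fold. As normalised log2 intensity, DCT was 11.51 in MRS 1, 11.50 in MRS 2, 11.94 in BM 1 and 11.72 in BM 2. These intensities were normalised within each array only, so they can be compared within an array but not between arrays. Mean raw intensity, not corrected for dye bias, was 3168 in MRS 1 and 3652 in BM 1. On array 2 it was 3352 in MRS and 3347 in BM, so the raw values of the groups overlapped.

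MAGEB2 had log2 ratios of -0.32 at the upper and -0.34 at the lower spot of array 1, and of -0.68 and -0.088 on array 2. The mean was -0.33 on array 1 (0.797-fold) and -0.38 on array 2 (0.767-fold), or -0.35 ± 0.039 (SD, n = 2), a mean ratio of 0.782-fold. The array 2 mean averages a spot of -0.68, whose signal was at its background, with a spot of -0.088, so the small SD between arrays does not show the spread between spots. With the lower spot alone, array 2 gave 0.941-fold, and the mean over arrays was -0.21 ± 0.18 (SD, n = 2). With spots over an SD of 50 left out, a choice made after the backgrounds were seen, the mean was -0.21 as well. As normalised log2 intensity, MAGEB2 was 14.12 in MRS 1, 10.37 in MRS 2, 13.80 in BM 1 and 9.98 in BM 2. Across arrays these groups overlap, because both channels of array 2, with its dim upper spot, were below both channels of array 1. Such values are comparable only within an array, and within each array MRS was the higher.

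**Figure D3:**
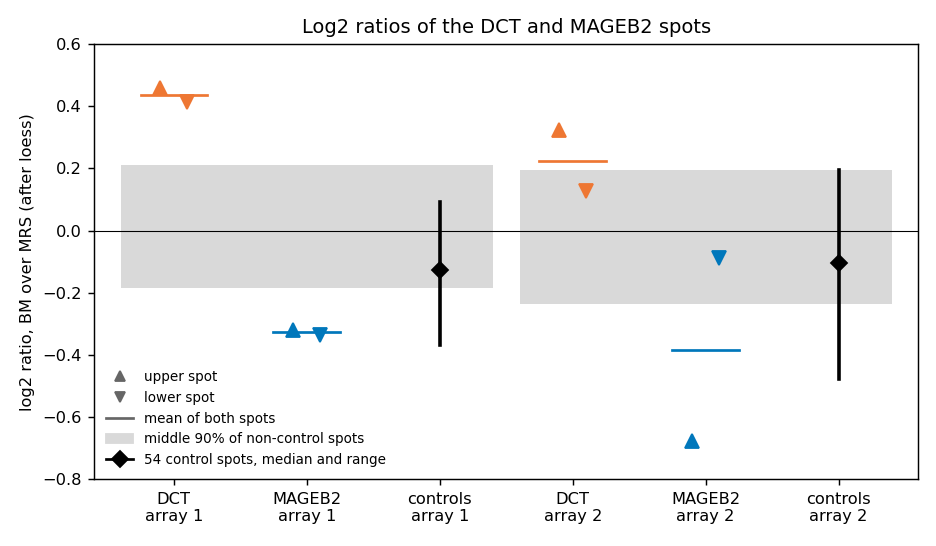
Log2 ratio of BM over MRS after loess (vertical axis) for each spot of DCT and MAGEB2 on both arrays, with the mean of the 2 spots as a line, the middle 90% of gene spots in grey and the median and range of the 54 control spots in black. The array 1 spots of each gene lie together, while on array 2 the MAGEB2 spots lie at -0.68 and -0.088.

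The agreement of the 2 spots of a probe can be read against all 1849 probes, and each count below includes the member itself. The DCT spots differed by 0.045 in log2 ratio on array 1, where 460 of 1849 probes differed by at least as much. On array 2 they differed by 0.20, which 22 of 1849 probes reached. The MAGEB2 spots differed by 0.017 on array 1 and by 0.59 on array 2, and 3 of 1849 probes reached the latter. In log2 intensity the MAGEB2 spots of array 2 differed by 6.29, against a median of 0.23 over probes, and 4 of 1849 probes reached that. On array 2 the difference between spots was thus larger than the mean ratio for MAGEB2, 0.59 against -0.38, and close to it for DCT, 0.20 against 0.22.

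Ratios of the control oligonucleotide spots were not centred on 0. Their median log2 ratio was -0.13 on array 1, with a range of -0.37 to 0.092, and -0.10 on array 2, with a range of -0.48 to 0.20. No control spot had a ratio as high as either DCT spot of array 1 or the upper one of array 2, and 2 of 54 were as high as the lower one of array 2. At MAGEB2, 1 of 54 control spots was as low as each spot of array 1, none was as low as the upper spot of array 2, and 32 of 54 were as low as the lower one. The pair was chosen for its ratios on these arrays, so these counts are a description and test nothing. The controls were dimmer in the middle, with median raw intensities of 277, 237, 352 and 319 in MRS 1, BM 1, MRS 2 and BM 2, and reached at most 5037. At the DCT spots 0 to 9 control spots were as bright or brighter, depending on the spot and channel. At the 3 bright MAGEB2 spots there were 0, and at the upper spot of array 2 there were 16 in MRS and 15 in BM.

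Spots around those of DCT were examined in the same way. On array 2 all 8 spots next to the upper DCT spot had positive ratios, from 0.033 to 0.24 with a median of 0.14. On array 1 the median of its neighbours was -0.0037, and 4 of 8 were positive. Next to the lower DCT spot, 0 of 8 were positive on array 1, with a median of -0.064. There 6 of 8 were positive on array 2, with a median of 0.034. Loess fitted separately in each print block follows the dye bias of a whole block, not of a few neighbouring spots. It left DCT ratios of 0.41 and 0.38 on array 1, but 0.25 and 0.027 on array 2. The part of local position in the ratio was not tested further.

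Across all genes, limma's moderated test with array as the block and Benjamini-Hochberg adjustment called 0 of 1843 genes (0%), with a smallest adjusted p of 0.560 and 121 genes at an unadjusted p under 0.05. On both arrays 454 genes (24.6%) were higher in BM and 526 (28.5%) lower, while 863 had opposite signs. A shared sign, by which the pair was chosen, was therefore common on these arrays, and nothing is read from it. DCT ranked 1st from the top on array 1, 62nd on array 2 and 4th by the mean. MAGEB2 ranked 5th from the bottom on array 1, 20th on array 2 and 4th by the mean, and 32nd by the mean once spots with uneven background were left out. DCT stayed 4th in that comparison, which removed none of its spots and so left its value unchanged. All these ranks are of the ratios the pair was chosen for.

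**Figure D4:**
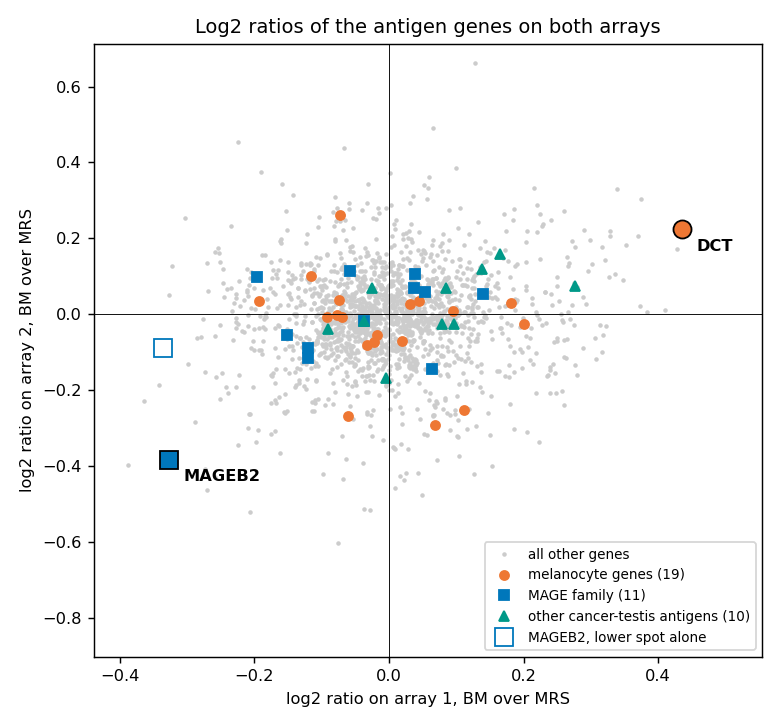
Log2 ratio of BM over MRS on array 1 (horizontal) against array 2 (vertical) for all genes, with melanocyte genes, MAGE family genes and other cancer-testis antigens marked. DCT lies to the right, MAGEB2 at the lower left, and the open square shows MAGEB2 from its lower spot alone, at -0.34 and -0.088.

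The authors' deposited table gives for each spot 1 fold of BM against MRS and a z ratio, the standardised log fold. There the upper DCT spot had a z ratio of 3.10 and a fold of 1.25, and the lower one 1.65 and 1.13. For MAGEB2, the authors' deposited table lists the upper spot at a z ratio of -2.47 and a fold of 0.834, and the lower one at -1.78 and 0.878. The deposited spot tables also hold net intensities, and these were 87.6 for MRS and 0 for BM at the upper MAGEB2 spot of array 2. Folds computed here from the net intensities were 0.837 at that spot on array 1, and 0.804 on array 1 and 0.981 on array 2 at the lower spot.

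Genes that act with DCT in pigment cells had ratios of both signs. So had the whole array, with 24.6% of genes higher on both arrays, 28.5% lower and 863 of 1843 opposite. Counts of this list and of those below stand beside these shares, and nothing is concluded from them. Of 19 listed genes of melanin synthesis and the melanosome, 12 were on the array, and among the 11 other than DCT limma called 0. Of these 11, 4 had positive and 3 had negative ratios on each array and 4 differed in sign between arrays (5, 2 and 4 under median centring), with a median log2 ratio of 0.029 against -0.0057 over all genes. TYRP1, which acts beside DCT in melanin synthesis, was at 0.20 on array 1 and -0.026 on array 2. MLANA, a melanosome protein and melanoma antigen, was at -0.19 and 0.035. MC1R, the melanocortin receptor that raises pigment enzyme expression in melanocytes, was at -0.061 and -0.27, with an adjusted p of 0.771 by limma. RAB38, a GTPase that carries tyrosinase family proteins to melanosomes, was at 0.18 and 0.030 (adjusted p = 0.775 by limma). Smaller ratios were found for GPR143, a melanosome receptor (mean 0.052), for MYO5A, a melanosome motor (0.040), and for OCA2, a melanosome membrane protein (0.029). The other 2 lower genes were RAB27A, a GTPase of melanosome transport, with a mean of -0.057 that turned to 0.29 under median centring and 0.018 with print-tip loess, and ASIP, an antagonist of MC1R, with -0.050.

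The 8 measured genes of the melanocyte lineage also gave 0 calls, and 4 of them were lower on both arrays, 0 higher and 4 opposite, with a median of -0.037. Under median centring the lineage counts were 3 higher and 2 lower, with a median of -0.022, and S100A1 and TRPM1 turned from -0.038 and -0.0067 to 0.22 and 0.23. MITF, the transcription factor that drives DCT expression in melanocytes, had a mean of -0.036, which turned to 0.18 when arrays were only centred on the median. KIT, the receptor of melanocyte precursors, had a mean of -0.048. All measured genes of both lists stood above background, as did nearly all genes on the array.

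Among the 11 measured MAGE family genes other than MAGEB2, limma called 0. Here 4 were higher in BM on each array, 4 lower and 3 opposite, with a median of -0.027 that turned to 0.049 under median centring, where 6 were higher and 2 lower. MAGEB2's closest measured relatives differed in sign: MAGEB3 had a mean log2 ratio of -0.10 ± 0.022 (SD, n = 2), MAGEB4 one of 0.056 ± 0.0029 (SD, n = 2), and MAGEB1 was at -0.20 on array 1 and 0.099 on array 2. MAGEA2, another antigen of this X-linked type, had a mean of -0.12, which turned to 0.094 under median centring, and MAGEC1 one of 0.097. NDN, a MAGE family gene expressed in many tissues, had a mean of -0.10, which turned to 0.086 under median centring. MAGE genes are similar in sequence, and cross-hybridisation between them was not tested.

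Of 10 measured cancer-testis antigens outside the MAGE family, 4 were higher on both arrays, 3 lower and 3 opposite, again with 0 calls and a median of 0.031. CTAG2, a cancer-testis antigen related to NY-ESO-1, was at 0.17 and 0.16 (adjusted p = 0.693 by limma). BRDT, a bromodomain protein of male germ cells, was at 0.28 and 0.074, and PAGE1 at 0.14 and 0.12. The 6 measured genes of germ cells and testis gave 0 calls, with 1 higher, 2 lower and 3 opposite. Of 11 genes for MAGE binding partners and DNA methylation, limma called 0, with 1 higher, 4 lower and 6 opposite (3 higher and 5 lower under median centring). HDAC2, a histone deacetylase, had a mean of -0.17, which turned to 0.091 under median centring.

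The labelled cell type was checked with markers of the colon epithelium. All 12 measured ones stood above background, and 3 were higher in BM on both arrays, 3 lower and 6 opposite (4 higher and 1 lower under median centring). Mean log2 ratios were 0.10 for CEACAM5, 0.12 for MUC2, an intestinal mucin, and -0.14 for GPA33, an intestinal surface antigen. All 8 leukocyte and all 7 fibroblast markers did as well, so signal above background did not separate the cell types on these arrays, and the identity of the cells rests on the label. None of these 3 lists had a gene called, and their median log2 ratios were 0.0096, -0.0020 and -0.026.

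The genes nearest to each member were taken by the distance between their pairs of log2 ratios over the 2 arrays, among 1757 named genes above background. The 5 nearest to DCT were PCM1 at a distance of 0.054, WNT10B at 0.067, EIF2AK2 at 0.092, CD80 at 0.099 and PPARG at 0.107. The 5 nearest to MAGEB2 were SERPINB1 at 0.060, SLC22A3 at 0.063, PATZ1 at 0.083, TFG at 0.107 and SLC2A8 at 0.109. From the lower MAGEB2 spot alone the same 5 were 0.201 to 0.350 away and ranked 90th to 817th. With 2 points per gene, such likeness is a description only.

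How the reported ratios follow from the processing can be seen array by array. On array 1 MAGEB2 stayed between -0.34 and -0.29, except when arrays were only centred on the median, which gave -0.12. On array 2 it was -0.11 without background correction and -0.34 with print-tip loess, and both keep the upper spot. Print-tip loess followed the same background correction as the reported value. The deposited net intensities gave -0.028 from the lower spot alone, because the BM net intensity of the upper spot was 0. DCT on array 2 was 0.14 with print-tip loess and 0.13 from the net intensities, against 0.39 and 0.37 on array 1. DCT was thus positive and MAGEB2 negative on each array in all ways of processing drawn, which are the signs they were chosen for. The array 2 value of MAGEB2 varied the most.

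**Figure D5:**
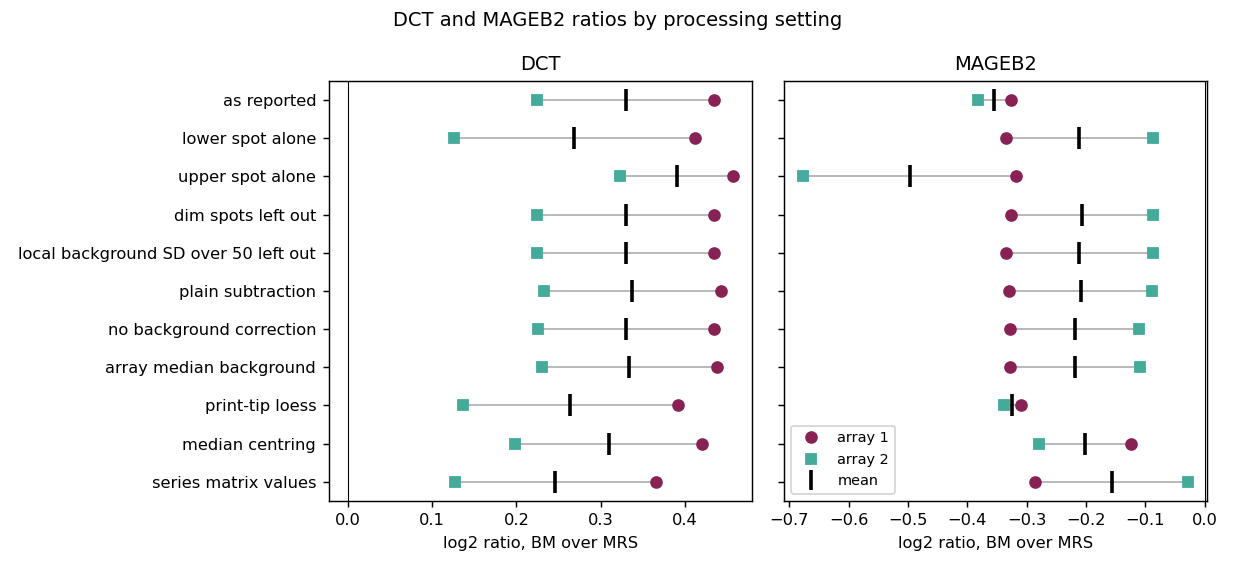
Mean log2 ratio of BM over MRS (horizontal axis) of DCT and MAGEB2 under each way of processing the arrays, with the value of each array as a point and their mean as a bar. The mean of DCT stays between 0.25 and 0.39, and that of MAGEB2 moves between -0.50 and -0.16.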

How the data were processed

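The deposited spot tables hold, per the file headers, raw intensity, local background and its SD, and net intensity of each spot in both channels of 2 arrays. The authors' deposited table adds folds, as logarithms to base 1.2, and a z ratio score per spot. The submitters' processing notes name R 4.2.2, with no role, and no source used here gives the scanner or the way net intensity was scaled. From raw and background intensity, normexp background correction (offset 50), loess within arrays with control spots at weight 0, averaging of the 2 spots and the brightest probe per gene were applied with limma 3.58.1 in R 4.3.3. The ratio of BM over MRS was fitted on each array, which pairs same-numbered samples as the labels state, and p-values were adjusted by Benjamini-Hochberg over 1843 genes. The number of arrays limits precision. Of 1856 probes, 1701 were named by accession, 75 by symbol, 5 by the file's name, and 75 stayed unnamed. Lists were described by at most 4 genes with the largest smaller ratio of both arrays, and relatives of the members were added. The code was tested on simulated data. The members and lists were chosen with earlier results of these data known.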

Additional observations from a re-analysis of the deposited data

How the results depend on the processing

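DCT kept a positive mean log2 ratio under all 12 settings tried, from 0.25 (net intensities of the series matrix) to 0.39 (upper spot alone), with print-tip loess at 0.26. Leaving out dim spots or spots over a background SD of 50 removed no DCT spot, and DCT had only 1 probe to average. Its value of 0.33 could therefore not change under those settings, and the sign is the one it was chosen for. MAGEB2 kept a negative mean log2 ratio under its 12 settings, again the sign it was chosen for, but moved by more than the SD between arrays under 9 of them. It was -0.21 with plain background subtraction, which leaves the upper spot of array 2 without a value, -0.22 with no background correction, -0.20 with median centring, -0.16 with the series matrix, -0.21 with dim spots left out, -0.50 from the upper spot alone and -0.21 from the lower spot alone. Settings chosen after seeing the data gave -0.21 without spots over a background SD of 50, and -0.22 with the array's median background. Leaving out 1 array gave 0.22 to 0.43 for DCT and -0.38 to -0.33 for MAGEB2. Without the replicate block, means of 0.33 and -0.35 are equal by construction, 0 genes were called and 0 had an unadjusted p under 0.05. Median centring called 34 genes, and the cause was not tested. With 2 arrays, 1 residual degree of freedom per gene and no dye swap, small ratios cannot be separated from dye and position effects.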

Other observations

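The area of uneven background in the first print block of array 2 held spots of other genes, named here after their values were seen. AGA, which encodes a lysosomal amidase, was at a log2 ratio of -0.92 in its affected spot, against -0.029 in the same spot of array 1. CD70, a ligand of the tumour necrosis factor family, was at 0.66 against -0.040. Both were close to the local background on array 2, AGA at 2.16 times in MRS and 1.26 times in BM, and CD70 at 2.16 and 2.75 times. Ratios of that size were not general. At gene spots of array 2 with a background SD over 50 the median absolute log2 ratio was 0.12, against 0.072 at the others. Spots of LUZP4, RAB27A, MBD4 and SLC26A3, which belong to the lists above, were affected too. That of SLC26A3 lay below its background, at 0.313 times in MRS and 0.345 times in BM, with a log2 ratio of -0.059. The lists were also counted without any spot over a background SD of 50, on either array and in any block. Then 2 in place of 3 other genes of melanin synthesis and the melanosome were lower on both arrays. Of the MAGE partner and DNA methylation genes, 2 in place of 1 were higher.

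Antigens of other tumours also had ratios of both signs, beside 24.6% of all genes higher on both arrays and 28.5% lower. Of 14 measured, 4 were higher in BM on both arrays, 3 lower and 7 opposite (3 higher and 4 lower under median centring), and limma called 0. BCAN, a proteoglycan of brain matrix, had log2 ratios of 0.23 and 0.23 (adjusted p = 0.560 by limma), and SART1, a splicing protein recognised by T cells, had -0.16 and -0.22 (adjusted p = 0.586 by limma), with a mean of -0.19 that was -0.012 under median centring. PTPRC, the leukocyte antigen CD45, was at -0.20 and -0.19 (adjusted p = 0.585 by limma).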
